A study of Mus musculus with 6 samples.

Results

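The report describes 37 genes of the NRF2 pathway and of the peroxiredoxin, glutathione and other antioxidant systems, chosen by gene symbol from textbook knowledge of these systems, of 20659 genes named on the arrays. Each was measured on 6 one-colour Agilent whole-mouse-genome arrays hybridised with RNA of adult mouse liver cells, sorted for the late endosomal tetraspanin CD63 and then cultured. In the DDC injury group (3 arrays) the cells came from livers that had been injured with DDC, a compound that blocks haem synthesis and leads to porphyrin deposits and bile duct injury. In the no-injury group (3 arrays) they came from livers without injury. The labels give no genotype, strain, sex, age or dose, and the time in culture is not given either.

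Both groups had been grown in DMEM/F12 with serum, penicillin/streptomycin, gentamicin, HGF, EGF, insulin-transferrin-selenium, dexamethasone, nicotinamide and 2-mercaptoethanol. This medium contained a reducing thiol and a selenium source in both groups, and the values describe cultures, not freshly sorted cells. Some cultures, which the labels do not tie to a sample, also received VEGF and bFGF. Numbers in the names of 2 no-injury files resemble those of the cultures concerned, so an effect of these factors and one of injury cannot be told apart. The design text speaks of 6 cell lines and does not say whether lines came from separate animals, so p-values measure the spread between these samples, which may be technical. Cd63 itself was well above background on all 6 arrays and differed by -0.11 ± 0.17 (adjusted p = 0.660).

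Values are log2 of the processed Cy3 signal minus the 75th percentile of the array, so that 0 is the signal of a spot at that percentile. Differences are DDC injury minus no injury with the standard error of the limma fit. P-values were adjusted by the Benjamini-Hochberg method over all 15622 genes tested, with a threshold of 0.05. Calls of a gene's further probes come from a separate limma fit, adjusted over 20427 probes. On spots printed repeatedly, replicates 1 and 3 of the no-injury group did not differ beyond spotting noise pooled over probes (chi-square test over 118 probes, p = 0.225). With each probe's own noise the chi-square was 166 in place of 128, on 117 degrees of freedom, and was given no p-value. Whether these replicates are separate cultures is not given. The mean of replicates 1 and 3 stands as 1 sample, and n is 3 DDC injury samples against 2 no-injury samples. The 6 arrays had between 65.0% and 74.8% of 43020 spots well above background and none saturated. The scanner runs of the 2 groups did not overlap, so scan and injury cannot be told apart.

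NRF2, encoded by Nfe2l2, is a transcription factor that KEAP1 holds for degradation. Oxidants and electrophiles modify KEAP1, NRF2 then accumulates, pairs with small Maf proteins and activates genes with antioxidant response elements. Its known targets include quinone and carbonyl reductases, glutathione synthesis, the thioredoxin system and enzymes that make NADPH. Superoxide dismutases turn superoxide into hydrogen peroxide, which catalase, peroxiredoxins and glutathione peroxidases remove, and the last 2 families draw their electrons, through thioredoxin or glutathione, from NADPH of the pentose phosphate pathway. Liver cells, hepatocytes above all, express many of these enzymes at high levels.

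Of the 37 genes 36 were tested, and 7 rose in DDC injury while 4 fell. Those that rose were Keap1, Txnrd1, Srxn1, Prdx4, Sod1, G6pdx and Tkt, and those that fell were Cbr1, Osgin1, Gpx8 and Cat. These shares of 19.4% and 11.1% stand beside 17.7% of all tested genes called higher and 15.8% called lower, so the number of antioxidant genes called in either direction was near that of the arrays as a whole. The counts by group below are to be read beside the same shares of all tested genes. On 18 of the 36 genes all measured DDC injury arrays lay above all 3 no-injury arrays, against 31.6% of all tested genes, and on 10 all lay below, against 31.5%. Of the 18, Prdx4 and Prdx6 had 2 injury values. The median difference was 0.20 over the 36 genes and -0.07 over all tested genes. Under quantile normalization the median of the 36 was 0.03, and on the authors' own values it was -0.01 with 6 genes called higher and 9 lower, so that no common direction of the genes was seen under every scaling. Named by function, a thioredoxin reductase, sulfiredoxin, a peroxiredoxin, a superoxide dismutase and enzymes of the pentose phosphate pathway rose, and catalase, a glutathione peroxidase, a carbonyl reductase and Osgin1 fell.

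**Figure D1:**
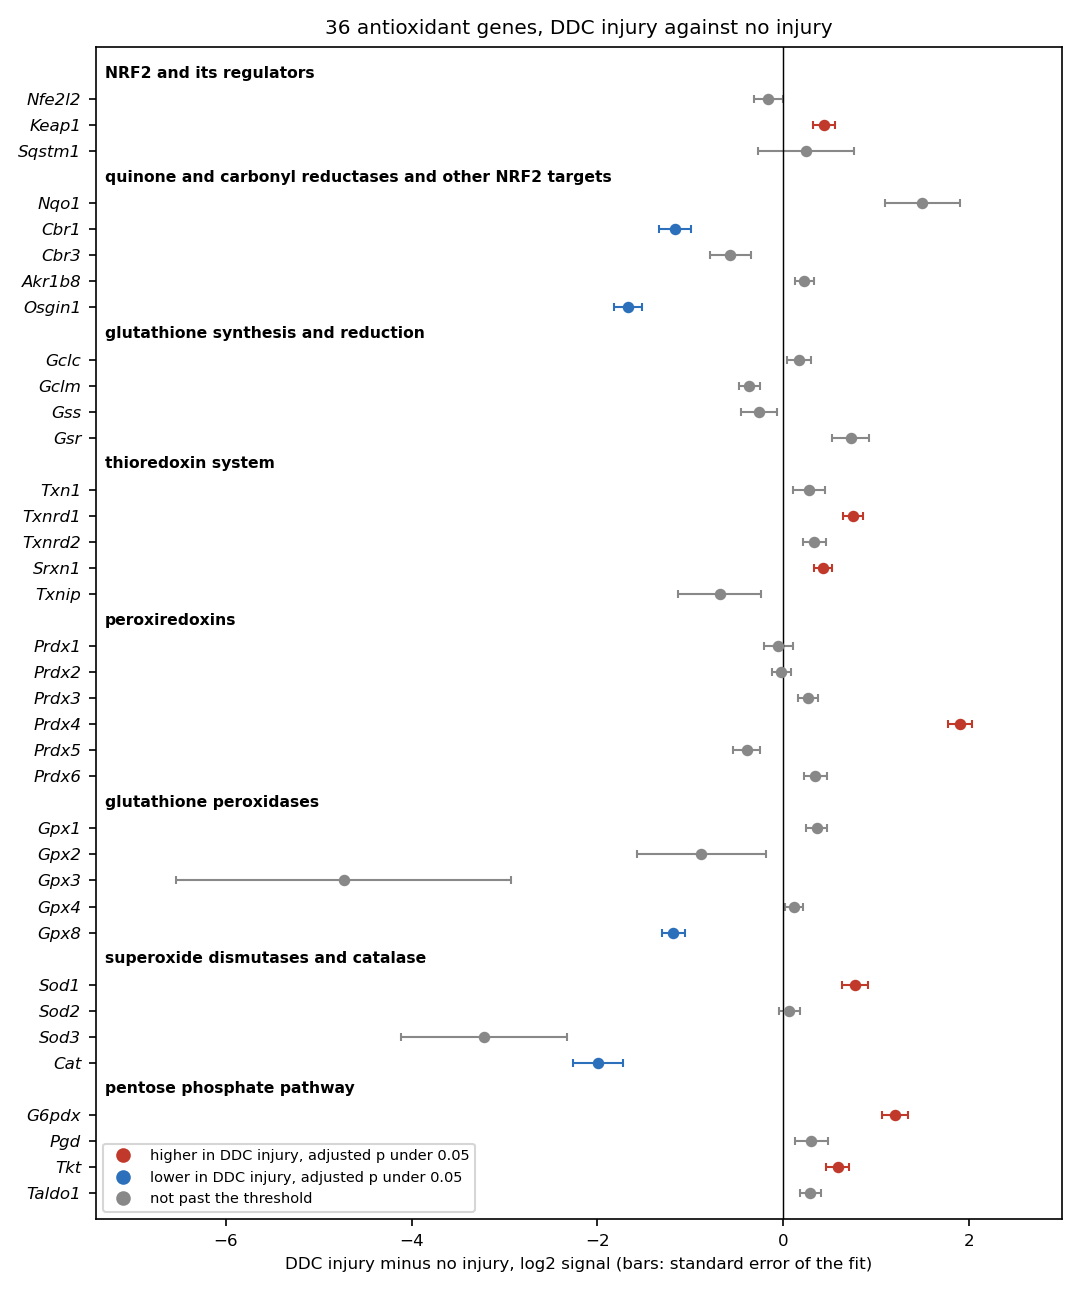
Difference of each tested gene between DDC injury and no injury, on the log2 signal scale, with bars for the standard error of the fit, in 8 functional groups. The 7 red genes lie between 0.43 and 1.90, the 4 blue genes between -1.99 and -1.17, and the widest bars belong to Gpx3 and Sod3, which did not pass the threshold.

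Promoter sequences show where the core of the antioxidant response element, TGACNNNGC, occurs near these genes. It was searched on both strands in the RefSeq promoters of GRCm38.p6, from 250 bases before to 50 after each start. Its letters occurred in 14.0% of 27025 genes with a promoter and in 8 of the 33 antioxidant genes that had one. Of these 8 genes, 4 rose (Txnrd1, Srxn1, Sod1 and G6pdx) and 4 did not pass. Of the 33 genes with a promoter 7 rose and 4 fell, so the other 3 that rose (Keap1, Prdx4 and Tkt) and all 4 that fell lack these letters in this window. Gclc, Prdx6, Gsr and Sod3 have no entry in the table. The windows below are printed on the strand that reads TGACNNNGC, with those 9 bases in capitals, so that the genes that rose can be compared with those that did not.
Txnrd1, rose, chr10:82859088-82859148, minus strand, motif 92 bases before the start: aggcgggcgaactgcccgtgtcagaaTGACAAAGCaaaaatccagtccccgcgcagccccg
Sod1, rose, chr16:90220680-90220740, minus strand, motif 56 bases before the start: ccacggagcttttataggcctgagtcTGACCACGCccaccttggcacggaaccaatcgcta
G6pdx, rose, chrX:74428903-74428963, plus strand, motif 57 bases before the start: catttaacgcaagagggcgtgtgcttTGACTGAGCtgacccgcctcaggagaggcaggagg
Srxn1, rose, chr2:152105542-152105570, minus strand, motif from base 29 after the start: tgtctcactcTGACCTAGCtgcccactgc
Prdx1, not passed, chr4:116685440-116685500, minus strand, motif 133 bases before the start: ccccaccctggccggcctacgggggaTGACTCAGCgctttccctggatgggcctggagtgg
Gclm, not passed, chr3:122245397-122245457, minus strand, motif 134 bases before the start: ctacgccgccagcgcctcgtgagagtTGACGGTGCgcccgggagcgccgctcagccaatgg
Nfe2l2, not passed, chr2:75704869-75704913, minus strand, motif 240 bases before the start: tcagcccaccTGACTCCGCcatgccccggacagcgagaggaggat
Pgd, not passed, chr4:149166061-149166089, minus strand, motif from base 4 after the start: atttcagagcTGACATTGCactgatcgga
The match in Prdx1 also contains TGACTCA, the letters of an AP-1 site, which the other 7 windows do not hold. A match is a description of letters and not of a bound site, and NRF2 binding was not measured.

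NRF2 and its regulators came first in the pathway. Nfe2l2 read 4.16, 4.57 and 4.33 on the DDC injury arrays and 4.46, 4.56 and 4.47 on the no-injury arrays. The groups overlapped, and the difference of -0.16 ± 0.16 did not pass (adjusted p = 0.486). NRF2 is regulated chiefly through the stability of its protein, which arrays do not measure. Keap1, its inhibitor, read -0.66, -0.51 and -0.72 in DDC injury and -1.01, -1.12 and -1.02 without injury. All 3 injury arrays lay above the others, and Keap1 rose by 0.44 ± 0.12, or 1.35-fold (adjusted p = 0.0498). This call is at the threshold and was lost under 9 of 20 other settings. Sqstm1 encodes p62, an autophagy receptor that binds KEAP1 and is itself an NRF2 target. It read 4.11, 2.60 and 3.94 in DDC injury against 3.35, 3.26 and 3.36, so replicate 2 lay below the no-injury arrays and the other two above them (difference 0.25 ± 0.52, adjusted p = 0.747).

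The reductases and other NRF2 targets went in both directions, with 0 of 5 called higher by limma's adjusted p (1 at an unadjusted p under 0.05) and 2 lower. Nqo1, the quinone reductase often used as a readout of NRF2, read -3.82, -4.99 and -3.96 in DDC injury against -5.77, -5.76 and -5.72. It was dim, with processed signals of 160, 45.3 and 101 in DDC injury against 37.8, 40.6 and 40.6, though well above background on all 6 arrays. All 3 injury arrays were higher, replicate 2 least so, and the difference of 1.5 ± 0.40 narrowly missed the threshold (adjusted p = 0.0529). It passed without DDC injury replicate 2, where it was 1.86 (adjusted p = 0.00358), but not without DDC injury replicate 1 or 3. Leaving out the array apart narrows the spread by itself. Nqo1 passed under 7 of the 18 settings that keep more than 1 no-injury sample, and its smallest difference under another scaling was 0.86. In the separate fit over 20427 probes the same difference of Nqo1 passed narrowly (adjusted p = 0.0494). Cbr1, a carbonyl reductase, read 1.97, 2.43 and 2.30 in DDC injury against 3.41, 3.39 and 3.43. The groups were well apart, and Cbr1 fell by 1.17 on the log2 scale with a standard error of 0.17, or 2.25-fold (adjusted p = 0.0117). Cbr3, its neighbour on chromosome 16, read 1.76, 2.35 and 1.78 against 2.51, 2.54 and 2.54. It too was lower on every injury array, by a difference of -0.57 ± 0.22 that did not pass (adjusted p = 0.125). Osgin1, an oxidative stress-induced growth inhibitor, read 1.95, 2.27 and 1.90 in DDC injury against 3.70, 3.71 and 3.71. Its no-injury arrays were almost equal, and Osgin1 fell by 1.67 on the log2 scale with a standard error of 0.15, or 3.18-fold (adjusted p = 0.00415). Akr1b8, an aldo-keto reductase, was higher on every injury array but by 0.23 ± 0.10, which did not pass (adjusted p = 0.155).

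None of the 4 genes of glutathione synthesis and reduction passed by limma's adjusted p, while 2 had an unadjusted p under 0.05. Gclc encodes the catalytic and Gclm the modifier subunit of glutamate-cysteine ligase, the enzyme that limits glutathione synthesis. Gclc read 4.63, 4.93 and 4.72 in DDC injury against 4.58, 4.60 and 4.57 (difference 0.17 ± 0.13, adjusted p = 0.371). Gclm read 1.37, 1.52 and 1.29 against 1.83, 1.73 and 1.74 (difference -0.37 ± 0.11, adjusted p = 0.0748). The subunits thus lay on opposite sides of 0 here, and Gclc changed sign under another scaling while Gclm did not. Gss, glutathione synthetase, differed by -0.26 ± 0.19 (adjusted p = 0.383) over 2 DDC injury arrays, since the spot on replicate 1 was marked as non-uniform. Gsr, the reductase that regenerates glutathione with NADPH, read 4.20, 4.67 and 4.14 against 3.62, 3.61 and 3.59. All injury arrays were higher, by 0.73 ± 0.20, just short of the threshold (adjusted p = 0.0546), and Gsr passed under 8 of the 18 settings that keep more than 1 no-injury sample. Its second probe gave a difference of 0.14, which did not pass either.

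In the thioredoxin system 2 of 5 genes rose. Txnrd1, the cytosolic selenoprotein that reduces thioredoxin, read 3.68, 3.54 and 3.49 in DDC injury against 2.71, 2.85 and 2.87. The injury arrays were all higher, and Txnrd1 rose by 0.75 ± 0.11, or 1.68-fold (adjusted p = 0.0113). Srxn1, sulfiredoxin, which repairs over-oxidised peroxiredoxins, read 2.28, 2.24 and 2.16 against 1.83, 1.80 and 1.77. These arrays were tight in both groups, and Srxn1 rose by 0.43 ± 0.10, or 1.34-fold (adjusted p = 0.0329). The call of Srxn1 was lost on the authors' values (0.35, adjusted p = 0.0629) and without DDC injury replicate 3 (0.46, adjusted p = 0.0675). Txnrd2, the mitochondrial thioredoxin reductase, was higher on all injury arrays by 0.33 ± 0.12 (adjusted p = 0.110), and Txn1, the cytosolic thioredoxin, differed by 0.27 ± 0.17 (adjusted p = 0.290). Txnip, an inhibitor of thioredoxin whose transcript follows glucose, read 2.53, 1.25 and 2.42 against 2.77, 2.76 and 2.71. It was lower on every injury array, mainly on replicate 2, and did not pass (difference -0.68 ± 0.45, adjusted p = 0.309).

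Of the 6 peroxiredoxins Prdx4 alone passed by its brightest probe. Prdx4 works in the endoplasmic reticulum, where it takes up hydrogen peroxide made during oxidative protein folding. It read 3.12 and 2.97 on DDC injury replicates 2 and 3 against 1.19, 1.09 and 1.18, and its spot on replicate 1 was marked as non-uniform and left out. Over these 2 arrays Prdx4 rose by 1.90 ± 0.13, or 3.74-fold (adjusted p = 0.00517). The marked spot read 1.64, above every no-injury array but far below the other two, and with it the difference was 1.44 ± 0.51 and no longer passed (adjusted p = 0.0995). Prdx1 and Prdx2, the cytosolic peroxiredoxins, differed by -0.05 and -0.02 with overlapping groups. Prdx3, in mitochondria, was higher on every injury array by 0.27 ± 0.10 (adjusted p = 0.122), and Prdx5, in mitochondria, peroxisomes and cytosol, was lower on each by a difference of -0.39 ± 0.14 (adjusted p = 0.106). Prdx6, which uses glutathione, had 4 probes with differences between 0.35 and 0.51. Its brightest probe, with a marked spot on DDC injury replicate 3, did not pass (adjusted p = 0.116). In the fit over 20427 probes that probe did not pass either (adjusted p = 0.113). There 2 of the others did (adjusted p = 0.0463 and 0.0206), so the call of Prdx6 depends on the probe.

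**Figure D2:**
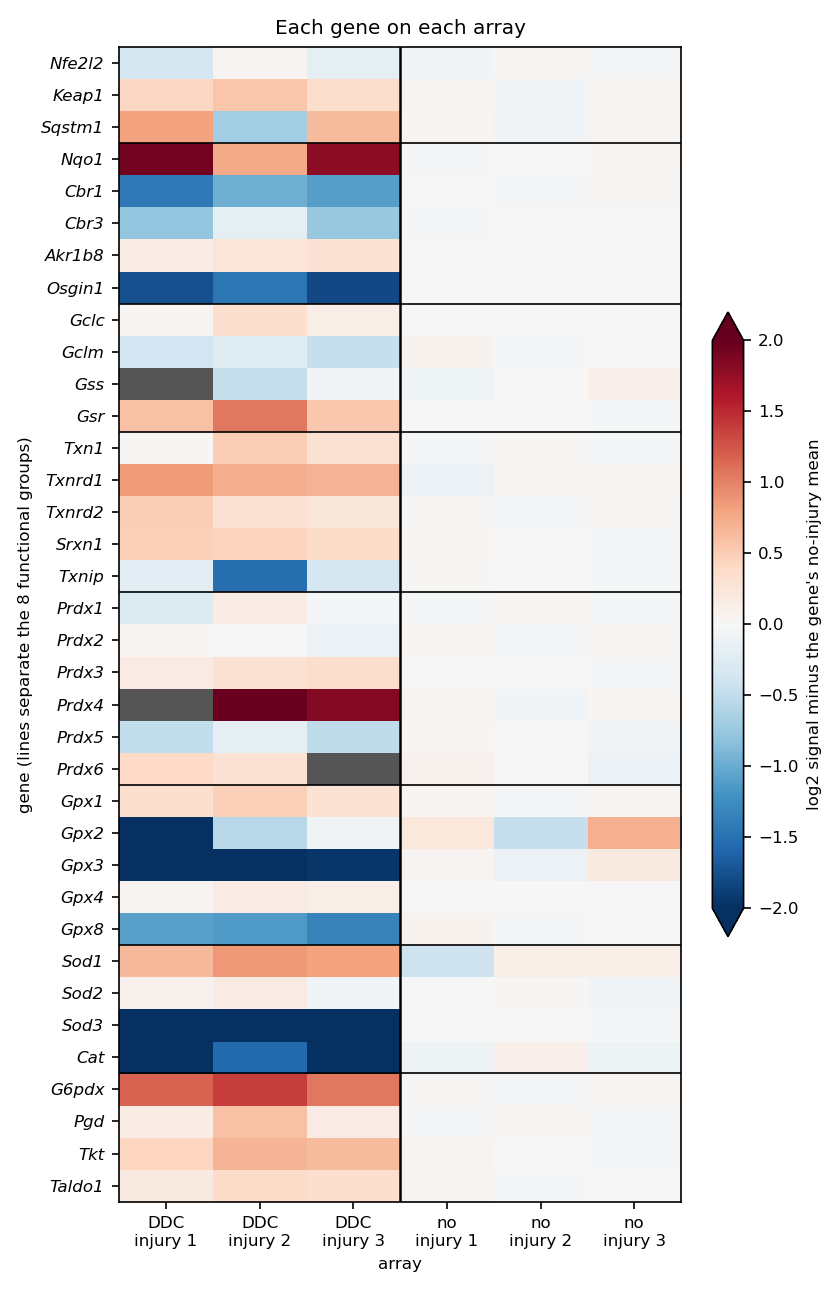
Log2 signal of the 36 tested genes on each of the 6 arrays, as the difference from the gene's own no-injury mean, with red for higher, blue for lower and dark grey for a spot left out; colours end at 2 and -2. Gpx3 and Sod3 are dark blue on all 3 DDC injury arrays, and Sqstm1 and Txnip are bluest on replicate 2.

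Among the glutathione peroxidases 1 of 5 tested genes fell and 0 rose by limma's adjusted p, with 1 higher at an unadjusted p under 0.05. Gpx8, a membrane enzyme of the endoplasmic reticulum, read -0.60, -0.64 and -0.85 in DDC injury against 0.57, 0.45 and 0.49. All injury arrays were lower, and Gpx8 fell by 1.18 on the log2 scale with a standard error of 0.12, or 2.27-fold (adjusted p = 0.00547). Prdx4 and Gpx8, which act on peroxide in the same compartment, were thus called in opposite directions. Gpx1, the main cytosolic enzyme, was higher on every injury array by 0.36 ± 0.11 (adjusted p = 0.0750), and Gpx4, which reduces lipid peroxides in membranes, by 0.11 ± 0.10 (adjusted p = 0.428). The differences of Gpx1 and Gpx4 were below 0 under another scaling. Gpx2, the epithelial enzyme, was dim and overlapped between the groups (difference -0.88 ± 0.70, adjusted p = 0.394). Gpx7 was not tested, since no array showed it well above background.

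Gpx3 and Sod3, the secreted enzymes, stood apart from the rest by the size of their differences and by their spread. Gpx3, plasma glutathione peroxidase, read -8.14, -4.91 and -2.35 in DDC injury against -0.35, -0.52 and -0.22. It was well above background on 2 of the 3 injury arrays, and the difference of -4.73 ± 1.80 did not pass (adjusted p = 0.116). Sod3, extracellular superoxide dismutase, read -5.75, -3.40 and -3.17 against -0.88, -0.87 and -0.90. No array of one group reached the other, and the difference of -3.22 ± 0.89 just missed the threshold (adjusted p = 0.0553). Without DDC injury replicate 1, the lowest in both genes, Sod3 was lower by a difference of -2.40 ± 0.13 and passed (adjusted p = 0.00299), and Gpx3 differed by -3.23 ± 0.94 (adjusted p = 0.0673). Sod3 did not pass without DDC injury replicate 2 or 3, and leaving out the array apart, here replicate 1, narrows the spread by itself. The same array was the lowest of the injury arrays for Hba-a1, Hbb-bt and Alas2 of red blood cells, Vwf of endothelium and Cd74 of leukocytes. It was also the lowest for the stellate cell markers Acta2, Col3a1 and Dcn. Pdgfra of the same list was lowest on replicate 2 and rose by 2.49 ± 0.42 (adjusted p = 0.0170). Col1a1 was higher on every injury array, by 1.04 ± 0.49, which did not pass (adjusted p = 0.182). The leukocyte markers Ptprc and Cd14 were lowest on replicates 2 and 3. Over all tested genes with a range of at least 0.5 in DDC injury, replicate 1 was the array apart on 49.5%. DDC injury replicate 1 was also scanned alone, on another day than all other arrays. Its scan and its sample cannot be told apart. Hba-a1 read -5.51, -0.78 and -0.35 in DDC injury against 1.62, -0.61 and 0.96. The 9 macrophage and leukocyte markers summed to between 3.03 and 6.72 times the array's 75th percentile in DDC injury against 8.14 to 8.80 without injury, with Clec4f not well above background. Without Cd14, the largest of them, they summed to between 0.311 and 1.93 against 2.31 to 2.72. The sums of the 7 endothelial markers lay between 0.171 and 0.595 against 0.540 to 0.805. Of the tested markers, 1 of 8 for macrophages and leukocytes and 0 of 6 for endothelium were called lower. In each of these lists 5 markers overlapped between the groups. The part of such cells in the values of Gpx3 and Sod3 was not tested. In bulk cultures, fewer cells of a type and less RNA per cell cannot be told apart.

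Sod1 rose, Cat fell, and Sod2 did not pass. Sod1, the cytosolic copper-zinc superoxide dismutase, read 5.22, 5.44 and 5.37 in DDC injury against 4.16, 4.71 and 4.70. The injury arrays were all higher, and Sod1 rose by 0.77 ± 0.14, or 1.71-fold (adjusted p = 0.0199). No-injury replicates 1 and 3, counted as 1 sample, are further apart here than for most genes, and on the authors' values the difference was 0.26 and did not pass (adjusted p = 0.271). Sod2, the mitochondrial manganese enzyme, differed by 0.07 ± 0.11 (adjusted p = 0.693). Cat, the peroxisomal catalase, read 1.73, 2.53 and 2.03 in DDC injury against 4.0, 4.19 and 3.99. The groups were far apart, and Cat fell by 1.99 on the log2 scale with a standard error of 0.27, or 3.98-fold (adjusted p = 0.0101), and its second probe also passed with a difference of -1.75. Hepatocytes are rich in catalase, and the 13 hepatocyte markers summed to between 11.2 and 19.8 in DDC injury, where the Fah spot of replicate 3 was left out, and to between 31.8 and 36.1 without injury. Ttr carried nearly all of this gap, and the other 12 markers summed to between 10.4 and 17.3 against 16.3 to 16.8. Of 12 tested markers Alb, Ttr, Apoa1 and Serpina1a fell, Hnf4a and Fah differed by -0.09 and 0.08, 5 overlapped between the groups, and Tdo2 was not well above background on any array. The part of hepatocyte-like cells in the fall of Cat was not tested.

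The 4 pentose phosphate genes among the 37 were each higher on every injury array, and 2 of them passed. G6pdx, the enzyme of the first and rate-limiting step, read 3.40, 3.60 and 3.27 in DDC injury against 2.24, 2.19 and 2.26. The groups were well apart, and G6pdx rose by 1.2 ± 0.14, or 2.30-fold (adjusted p = 0.00677). Tkt, transketolase, which links the pathway back to glycolysis, read 4.09, 4.33 and 4.29 against 3.70, 3.65 and 3.62. It rose by 0.58 ± 0.12, or 1.5-fold (adjusted p = 0.0269), a call that was lost without DDC injury replicate 3 (0.56, adjusted p = 0.0785). Pgd, which makes the second NADPH of the pathway, differed by 0.30 ± 0.18 (adjusted p = 0.268), and Taldo1, transaldolase, by 0.29 ± 0.11 (adjusted p = 0.117). Pgls and Rpia, further enzymes of the pathway, overlapped between the groups, with differences of 0.08 and -0.19. The 4 genes stayed above 0 under each of 4 other scalings. G6pdx and Prdx4 lie on chromosome X, whose 545 tested genes had a median difference of 0.39 against -0.08 for the other chromosomes, with 36.9% of them called higher. Both genes exceeded that median, and the part of the chromosome's shift in their values was not tested. Other chromosomes were shifted as well, such as 15 (median 0.33, 37.8% called higher), 3 (0.23), 4 (-0.30) and 8 (-0.29). Among the genes named here, Rbx1 and Txn2 lie on chromosome 15 and Slc7a11 and Gclm on chromosome 3. Nqo1, Gsr and Osgin1 lie on chromosome 8. The part of these shifts was not tested either. G6pd2, a near copy of G6pdx on chromosome 5, had a probe of its own that differed by 0.34 ± 0.14 (adjusted p = 0.143). Cross-hybridisation between such copies cannot be judged from these files.

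**Figure D3:**
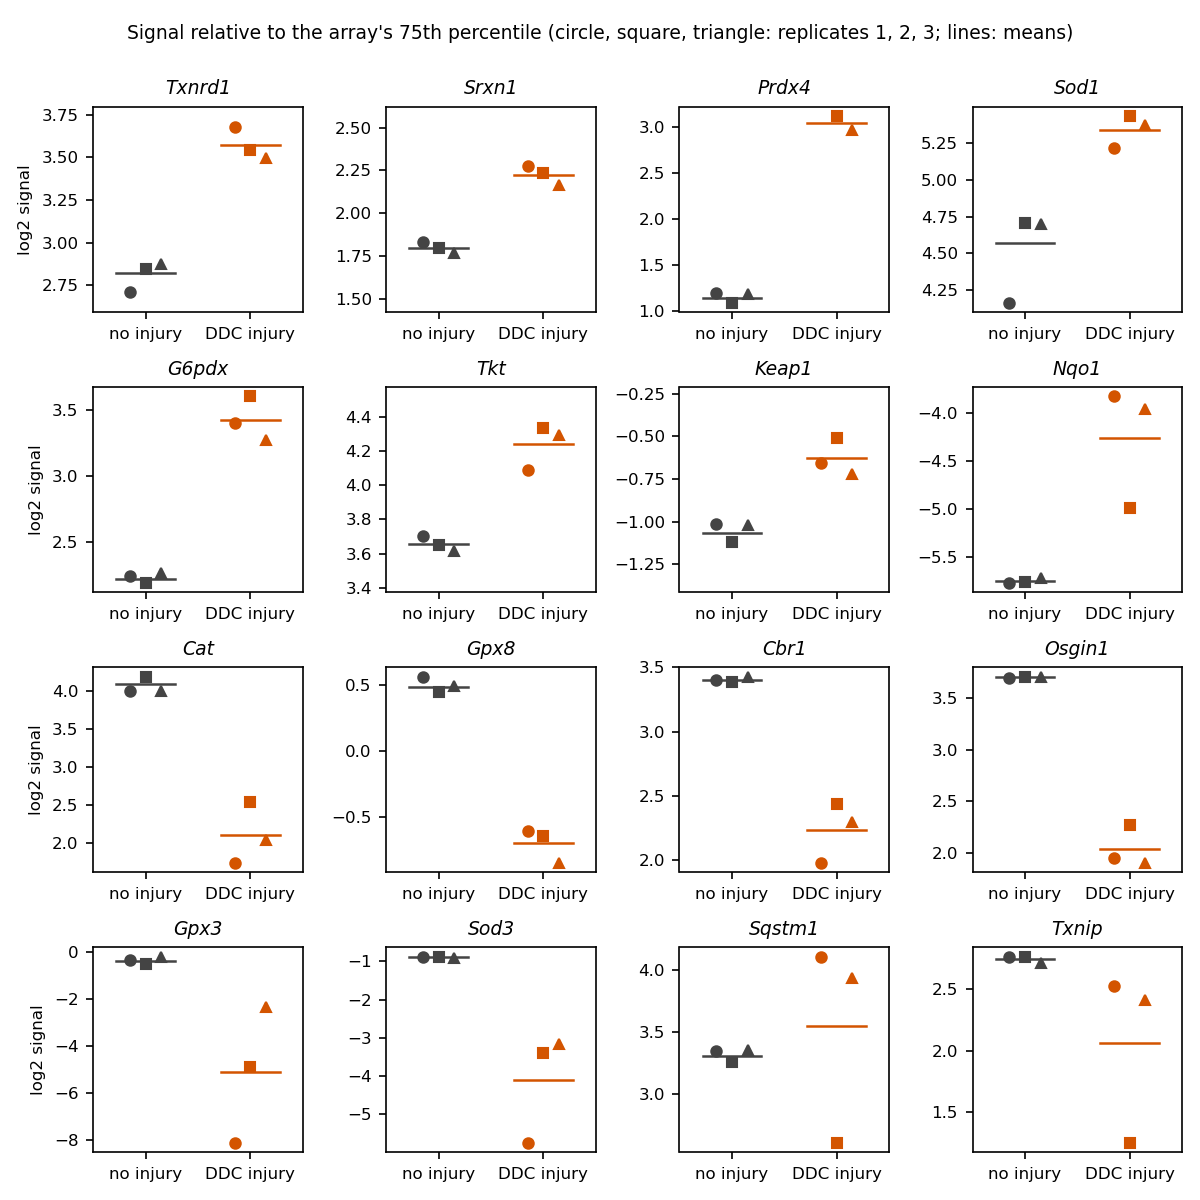
Log2 signal, relative to the 75th percentile of the array, of 16 antioxidant genes on each array, with lines for the group means, that of no injury being over 2 samples because replicates 1 and 3 count as 1. Each panel has its own scale. The DDC injury points of Txnrd1, Srxn1, G6pdx and Tkt lie above and those of Cat, Gpx8, Cbr1 and Osgin1 below all no-injury points, and replicate 2 lies apart in Nqo1, Sqstm1 and Txnip.

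The spread between arrays was wider in DDC injury than without injury on 34 of the 36 genes, with a median range of 0.31 against 0.07. Of the 33 genes with all 3 injury values, 9 had a range of at least 0.5. Replicate 2 was the array apart on 6 of these (Sqstm1, Txnip, Nqo1, Cat, Cbr3 and Gsr) and replicate 1 on 3 (Gpx3, Sod3 and Gpx2). Over all tested genes with such a range, replicate 2 was apart on 41.1% and replicate 1 on 49.5%. By compartment, 0 of 4 mitochondrial genes passed by limma's adjusted p (2 at an unadjusted p under 0.05). Of 4 tested genes of the endoplasmic reticulum or secreted 2 passed (Prdx4 up, Gpx8 down). Of 6 selenoproteins Txnrd1 alone rose by limma's adjusted p, while 3 were higher and 0 lower at an unadjusted p under 0.05.

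The other genes of the pathway, 138 in 7 lists, went in both directions. Of 122 tested, 21 rose and 27 fell, with a median difference of 0.01. These were 17.2% and 22.1%, against 17.7% and 15.8% of all tested genes. Among partners of NRF2, 1 of 10 rose (Rbx1, a subunit of the ubiquitin ligase that KEAP1 serves, 0.56 ± 0.12, adjusted p = 0.0284) and 1 fell (Nfe2l3, an NRF2 relative, -1.57 ± 0.13, adjusted p = 0.00314). The small Maf Mafg, the repressor Bach1 and the ligase scaffold Cul3 differed by -0.12, 0.04 and -0.01, and none passed.

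Of 27 further textbook NRF2 targets 9 rose and 1 fell, or 33.3% and 3.70% against 17.7% and 15.8% of all tested genes. Those with the smallest adjusted p were Aldh1a7, a cytosolic aldehyde dehydrogenase, which fell by 3.37 on the log2 scale (adjusted p = 0.000615), and 3 genes that rose. These were Adh7, an alcohol dehydrogenase, by 1.93 ± 0.19 (adjusted p = 0.00484), Ptgr1, prostaglandin reductase, by 0.87 ± 0.10 (adjusted p = 0.00776), and Abcc1, an exporter of glutathione conjugates, by 0.98 ± 0.13 (adjusted p = 0.00937). Adh7 was dim, at -5.30, -5.03 and -5.33 in DDC injury against -6.97, -7.35 and -6.91. Its difference lay between 0.69 and 2.15 over 20 other settings. Slc7a11, the cystine importer that feeds glutathione synthesis, read 1.33, -1.94 and 1.13 in DDC injury against -3.55, -3.39 and -3.60. Every injury array was higher, replicate 2 much less so, and the difference of 3.66 ± 1.14 did not pass (adjusted p = 0.0740). Hmox1, haem oxygenase, read 1.59, 0.13 and 1.59 against 0.74, 0.78 and 0.77, with replicate 2 below and the others above the no-injury arrays (difference 0.34 ± 0.53, adjusted p = 0.661). Without replicate 2, Slc7a11 differed by 4.71 (adjusted p = 0.00232) and Hmox1 by 0.82 (adjusted p = 0.00637), and both passed. Leaving out the array apart narrows the spread by itself. Without DDC injury replicate 1 or 3 neither gene passed. Slc7a11 then differed by 3.08 and 3.18 (adjusted p = 0.107 and 0.172). Hmox1 differed by 0.09 and 0.10 (adjusted p = 0.904 and 0.908). Replicate 2 was the lowest injury array in Slc7a11, Hmox1, Sqstm1 and Nqo1, but it was the highest in other NRF2 targets such as Gclc, Gclm, Gsr and G6pdx. Of the further targets with all 3 injury values it was the lowest in 11 and the highest in 12 of 26, and of the 37 genes in 3 and 20 of 33, against 34.0% and 37.1% of all tested genes. Me1, malic enzyme, which also makes NADPH, differed by 0.19 and did not pass.

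Of 27 glutathione transferases and turnover enzymes 1 rose, 11 fell and 15 did not pass, or 3.70% called higher and 40.7% lower against 17.7% and 15.8% of all tested genes. Gsta3, an alpha-class transferase of hepatocytes, read -0.25, -0.45 and -0.44 in DDC injury against 5.01, 4.97 and 4.94. It fell by 5.35 on the log2 scale with a standard error of 0.11 (adjusted p = 0.000587). Gstk1, a mitochondrial and peroxisomal transferase, fell by 3.08 (adjusted p = 0.000615), Oplah, oxoprolinase, fell by 3.17 (adjusted p = 0.00184) and Gstm1, a mu-class transferase, fell by 1.78 (adjusted p = 0.00249). Gstp1, a pi-class transferase, differed by -0.42 ± 0.16 and did not pass (adjusted p = 0.118). Of the hepatocyte markers given beside Cat, 4 of 12 were called lower, Hnf4a and Fah did not pass, and their part in these values was not tested.

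Of 20 glutaredoxins, thioredoxin-like proteins, methionine sulfoxide reductases, sestrins and Park7 5 rose and 6 fell. These were 25% and 30%, against 17.7% and 15.8% of all tested genes. The sestrins Sesn2 and Sesn3 rose and Sesn1 fell. Txn2, the mitochondrial thioredoxin, rose by 1.25 ± 0.10 (adjusted p = 0.00319) and Nxn, nucleoredoxin, by 1.66 ± 0.13 (adjusted p = 0.00312). Msrb3, a methionine sulfoxide reductase, fell by 1.34 (adjusted p = 0.00224) and Txnl4b, a thioredoxin-like protein, fell by 0.82 (adjusted p = 0.0110). Among genes of NADPH supply and of the pentose phosphate pathway outside the 37 genes 2 of 13 rose and 1 fell. Rpe, of the pentose phosphate pathway, rose by 0.73 ± 0.14 (adjusted p = 0.0207) and Nadk2, the mitochondrial NAD kinase, by 0.69 ± 0.10 (adjusted p = 0.0113). Shpk, sedoheptulose kinase, fell by 1.34 (adjusted p = 0.0114). Idh1, cytosolic isocitrate dehydrogenase, differed by 0.26 ± 0.13 over 2 injury arrays and did not pass (adjusted p = 0.232).

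The list of enzymes that make superoxide or hydrogen peroxide, which also holds oxidase subunits, the copper chaperone Ccs and Ucp2, included 4 of 15 tested genes that fell and 1 that rose. These were 26.7% lower and 6.67% higher, against 15.8% and 17.7% of all tested genes. Nox4, an NADPH oxidase, fell by 3.85 with a standard error of 0.56 (adjusted p = 0.0115), Xdh, xanthine dehydrogenase, fell by 1.84 (adjusted p = 0.00261) and Maoa, monoamine oxidase, fell by 0.76 (adjusted p = 0.00818). Ero1b, an oxidase of protein folding in the endoplasmic reticulum that produces hydrogen peroxide, rose by 1.09 ± 0.16 (adjusted p = 0.0127), in the compartment where Prdx4 acts. In selenoprotein synthesis 2 of 10 rose and 3 fell (20% and 30%, against 17.7% and 15.8% of all tested genes). Among them Sephs2, selenophosphate synthetase, fell by 0.97 (adjusted p = 0.0101) and Scly, selenocysteine lyase, fell by 0.94 (adjusted p = 0.0169). Pstk, the kinase that prepares the selenocysteine tRNA, rose by 0.84 ± 0.16 (adjusted p = 0.0222) and Sephs1, a relative of Sephs2, by 0.51 ± 0.10 (adjusted p = 0.0225), although the mean over all probes of Sephs1 differed by -0.21.

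How firmly each gene stands depends on the no-injury arrays. With the mean of the 3 no-injury arrays as their 1 sample, or without no-injury replicate 2, none of the 37 genes passed by limma's adjusted p. At an unadjusted p under 0.05, 4 were higher and 4 lower under either setting, and 548 and 520 of all genes passed after adjustment. Txnrd1, G6pdx, Cbr1, Osgin1, Gpx8 and Cat passed under each of the 18 other settings. Keap1 passed under 11 of those 18, Srxn1 and Sod1 under 14, Tkt under 16 and Prdx4 under 15 of 16. No called gene changed sign under any of them.

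**Figure D4:**
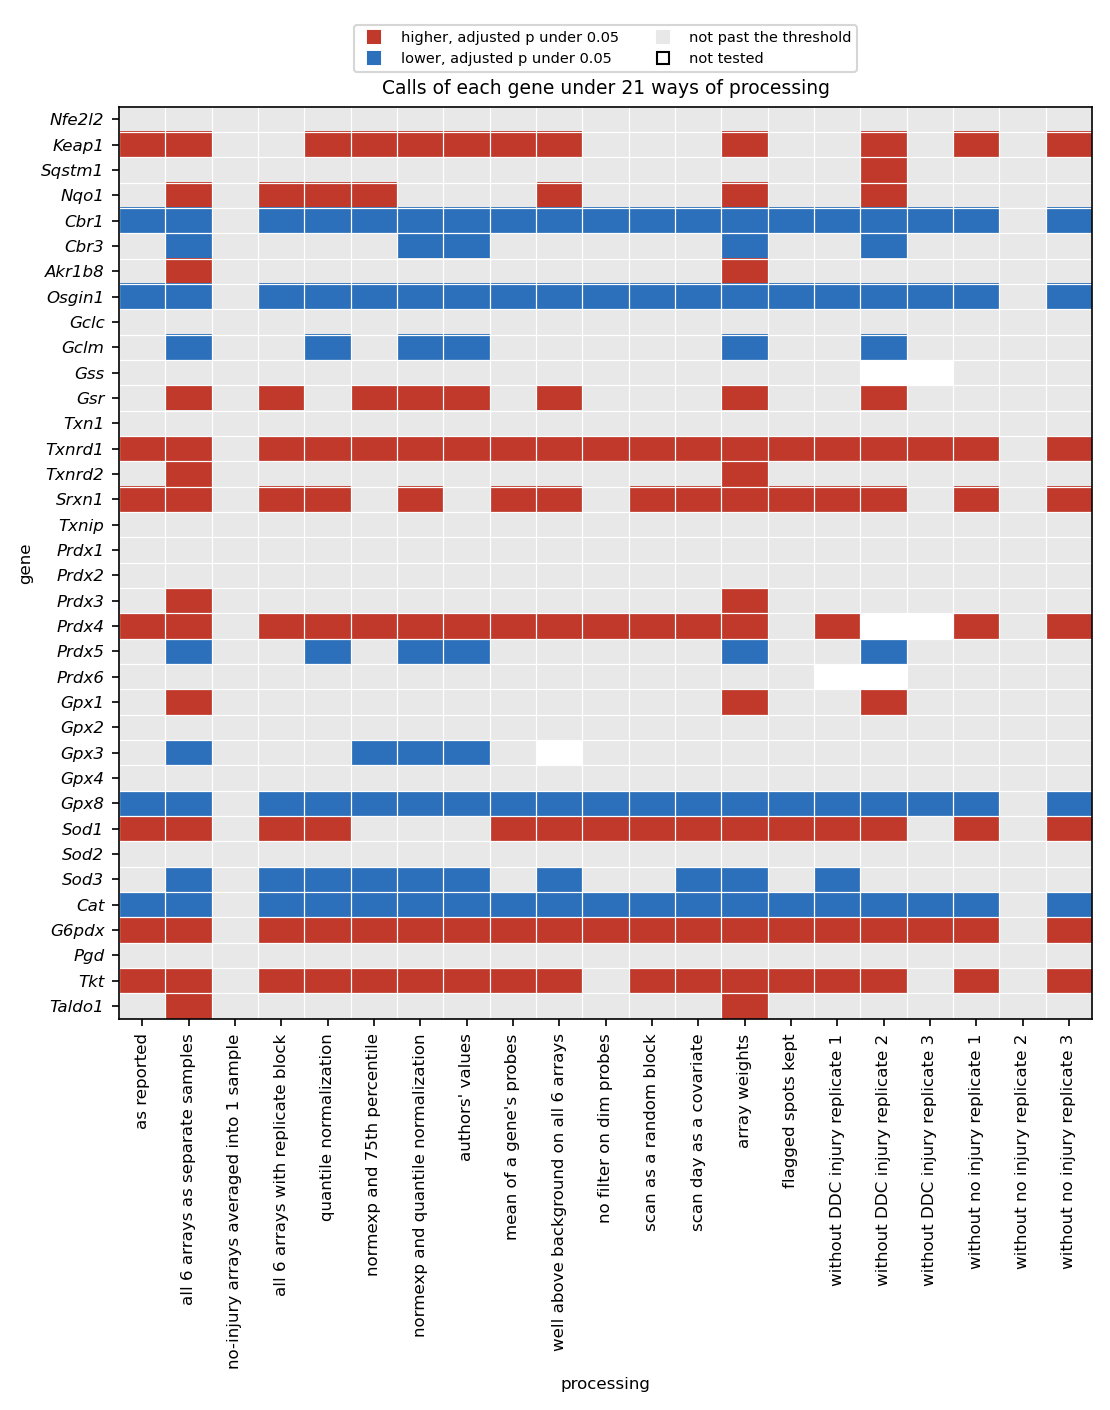
Calls of the 36 genes (rows) as reported and under 20 other ways of processing (columns): red for higher and blue for lower with an adjusted p under 0.05, light grey for not past the threshold and white where too few values were left. Txnrd1, G6pdx, Cbr1, Osgin1, Gpx8 and Cat are coloured in all columns but those with the no-injury arrays averaged and without no-injury replicate 2, where no gene is.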

How the data were processed

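RNA of 6 cell cultures was hybridised to 6 Agilent arrays of design 026655. Per the file headers, spots were read with Feature Extraction 11.0.1.1, and the processed signal used here is an intensity that the software corrected for background. The authors also deposited log2 values of the same arrays, whose columns share their quantiles; the submitters' processing notes name limma, with its settings not given in the sources used here.

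Of 39429 probes that were not controls, 27234 were named through their accession in RefSeq's GRCm38.p6 table. The arrays' own annotation is of another build, so gene coordinates are not taken from it. Spots that the software marked non-uniform or outlying were dropped. Each gene stands by its brightest probe over the 6 arrays and was tested where 3 or more arrays had it well above background and each group had 2 or more values. Differences were fitted with limma 3.58.1 in R 4.3.3 (lmFit, eBayes, two-sided, 3 samples against 2). On simulated data with 15622 genes, of which 200 were shifted, the fit recovered 78% of 8-fold and 13.6% of 2-fold shifts. In the data far more genes, 5224, were called, so these figures do not give the recovery in this comparison. Small changes could still be missed. The number of arrays limits the precision. The 37 genes and the lists were chosen with earlier results of these data known. All 37 are named, and of each other list up to 4 called genes with the smallest adjusted p and a fixed set (Hmox1, Slc7a11, Mafg, Bach1, Cul3, Txn2, Gsta3, Gstm1, Gstp1, Me1 and Idh1). The level of 1 marker of the fixed lists, and the sum that holds it, are not reported here. G6pd2, Pgls, Rpia, Ccs, Ucp2, Park7 and the sestrins were named after their values were seen.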

Additional observations from a re-analysis of the deposited data

How the results depend on the processing

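The number of genes called in all was 5224 and became 548 with the mean of the no-injury arrays as 1 sample and 8568 with array weights, and leaving out 1 replicate gave 520 (without no-injury replicate 2) to 6837 (without DDC injury replicate 2). Of the 37 genes, the 7 called higher became 14 with all 6 arrays as separate samples, 0 with the no-injury arrays averaged, 4 with no filter on dim probes, 14 with array weights, and 0 to 10 when 1 replicate was left out. The 4 called lower became 9 with 6 separate samples, 0 with the no-injury arrays averaged, 7 with quantile normalization, 9 with normexp and quantile normalization, 9 on the authors' values, 8 with array weights, and 0 to 7 when 1 replicate was left out. Of the other pathway genes, the 21 called higher became 33 with separate samples, 0 with the no-injury arrays averaged, 37 with array weights, and 0 to 35 without 1 replicate. The 27 called lower became 4 with the no-injury arrays averaged and 5 to 37 without 1 replicate. Averaging the no-injury arrays and leaving out their replicate 2 each leave 1 no-injury sample, assumed to vary like the others; the cause of the other moves was not tested.

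Whether replicate numbers pair the samples was not settled. Deviations from the group mean correlated over genes at 0.117, 0.018 and 0.121 between same-numbered arrays of the 2 groups. Between differently numbered arrays they correlated at -0.145 to 0.019. With the replicate block over all 6 arrays, 8 of the 37 genes were called higher and 5 lower, 25 and 29 of the other pathway genes, and 5563 genes in all. Normexp background correction moved the median over all genes from -0.07 to 0.07. Gclc, Prdx1, Prdx6, Gpx1, Gpx4 and Sod2, none of them called, changed sign under at least 1 of 4 other scalings. Sephs1 turned from 0.51 to -0.21 (adjusted p = 0.206) with the mean over its probes.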
